A study of Mus musculus with 12 samples.

Results

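Expression of 7 genes of a silencing pathway was followed in stem cells and progenitors of the blood from fetal mouse livers: Setdb1, Atf7ip, Trim28, Mphosph8, Fam208a, Pphln1 and Morc2a. They were taken by symbol, and all 7 were found among the 24054 genes of each deposited table. RNA was sequenced at E13.5 from LSK cells, the fraction that holds early blood cells, in 12 libraries with 3 in each of 4 groups. LT-HSC, long-term haematopoietic stem cells, were sorted by the presence of CD150 and the absence of CD48, and MPP, multipotent progenitors, by the reverse. The labels give 500 to 1000 sorted LT-HSC and 20000 sorted MPP. The mutants of both cell types had the genotype Setdb1 p/p;vav-cre, in which a Cre recombinase driven by the Vav promoter is active in blood cells. LT-HSC control 1 and MPP controls 1 and 2 had the genotype Setdb1 +/p;+/+, without Cre. LT-HSC controls 2 and 3 and MPP control 3 had the genotype Setdb1 +/p;vav-cre. Every library therefore came from cells with at least 1 p allele, whose nature the labels do not state.

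SETDB1 is an enzyme that methylates lysine 9 of histone H3 and so marks chromatin as silent. ATF7IP binds SETDB1, holds it in the nucleus and protects it from degradation. TRIM28, also known as KAP1, is brought to DNA by KRAB zinc finger proteins and recruits SETDB1 there, above all to endogenous retroviruses. The HUSH complex joins MPHOSPH8, which reads methylated lysine 9 through its chromodomain, FAM208A (also named TASOR), the scaffold of the complex, and PPHLN1, periphilin. HUSH works with SETDB1 and with the ATPase MORC2A, which compacts chromatin, to silence retroelements and recently inserted DNA.

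The promoters of 3 genes are shown because they carry the main contrast of the results: Setdb1 is the mutated gene, Fam208a is the HUSH member with the highest fold between genotypes, and 2810474O19Rik (RefSeq symbol Resf1) is a SETDB1 partner outside the 7 whose level differed most. Each line gives the 250 bases before an annotated start in RefSeq's GRCm38.p6 tables, read 5′ to 3′ on the strand of the gene. Capitals mark matches to 3 motifs on either strand: the CCAAT box (CCAAT or ATTGG), an ETS core (CCGGAA or TTCCGG) and a TATA box (TATAAA or TTTATA). No motif overlaps another in these 3 windows.
Setdb1 (chr3:95357203-95357452, minus strand): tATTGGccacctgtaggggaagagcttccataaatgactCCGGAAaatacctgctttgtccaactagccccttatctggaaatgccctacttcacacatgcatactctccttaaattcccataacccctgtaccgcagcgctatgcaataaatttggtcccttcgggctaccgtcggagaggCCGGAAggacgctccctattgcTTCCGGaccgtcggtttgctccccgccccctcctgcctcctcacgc
Fam208a (chr14:27428584-27428833, plus strand): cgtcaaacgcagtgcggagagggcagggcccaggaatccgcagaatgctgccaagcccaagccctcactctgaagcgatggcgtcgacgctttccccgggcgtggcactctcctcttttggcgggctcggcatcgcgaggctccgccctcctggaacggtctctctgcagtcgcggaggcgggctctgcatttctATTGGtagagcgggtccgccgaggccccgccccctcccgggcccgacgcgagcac
2810474O19Rik (chr6:149309164-149309413, plus strand): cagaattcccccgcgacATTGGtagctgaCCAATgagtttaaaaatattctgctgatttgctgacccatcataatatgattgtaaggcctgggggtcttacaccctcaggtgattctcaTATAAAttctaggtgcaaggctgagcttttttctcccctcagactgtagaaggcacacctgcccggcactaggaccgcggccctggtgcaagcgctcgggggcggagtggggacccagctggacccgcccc
The Fam208a window was the richest of the 3 in CpG, with 27 CpG sites and a GC content of 68.4%, against a median of 6 sites and 52.4% over all promoters of this length. It held 1 CCAAT box and no match to the other motifs. The Setdb1 window held 1 CCAAT box, 3 ETS cores, 13 CpG sites and a GC content of 54.4%. The window of 2810474O19Rik held 2 CCAAT boxes and 1 TATA box, with 9 CpG sites and the same GC content of 54.4%. Of 32851 promoters, 33.8% held a CCAAT box, 12% an ETS core and 12.4% a TATA box, and a match describes letters only. The Fam208a window lies inside the annotated span of the gene, because RefSeq lists other starts upstream of it, and it also enters the span of the noncoding RNA gene Gm52095.

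Total expected counts lay between 10119416 and 14113198 per library, and 14863 to 15780 genes were above 0. Setdb1 had between 692.88 and 1818.04 expected counts per library, and the lowest value of any of the 7 genes was 350.08 for Mphosph8, so all 7 passed the filter on low counts in every comparison. The genes of the sorting markers CD150 and CD48 followed the gates of the cell types. Slamf1, which encodes CD150, had 34.9 to 41.6 CPM (expected counts scaled for depth with TMM factors) in LT-HSC mutants and 34.7 to 38.2 CPM in their controls, against 1.09 to 1.36 CPM in MPP mutants and 1.32 to 2.39 CPM in MPP controls. Cd48 had 10.6 to 30.4 CPM in LT-HSC mutants and 10.8 to 17.0 CPM in their controls, against 150 to 194 CPM in MPP mutants and 204 to 259 CPM in MPP controls. Markers listed for other liver cells were present too, with at most 1 marker of a list at 0 in any library. Whether the sorted cells themselves expressed them was not tested. The summed level of 8 macrophage markers was 46.5, 818.9 and 123 CPM in LT-HSC mutants 1 to 3, against 510.3, 701 and 789 CPM in the controls, and it was 88.5 to 186 CPM in MPP mutants, against 581 to 777 CPM in MPP controls. All 8 had a lower mean in MPP mutants, to unlike degrees. Csf1r, the largest part of the sum in MPP controls, averaged 49.3 CPM in MPP mutants and 293 CPM in MPP controls, and Mrc1 10.5 and 12.9 CPM. The summed level of 8 erythroid markers was 1325 to 2594 CPM in LT-HSC mutants and 864 to 1479 CPM in the controls, and 2050 to 3099 CPM in MPP mutants, against 384 to 678 CPM in MPP controls. One of these markers, the carbonic anhydrase gene Car1, averaged 797 CPM in LT-HSC mutants and 7.90 CPM in their controls. Without Car1, a choice made after the values were seen, the other 7 summed to 745 to 1222 CPM in LT-HSC mutants and 858 to 1470.0 CPM in the controls, and to 955 to 1334 CPM in MPP mutants, against 374 to 668 CPM in MPP controls. The summed level of 8 hepatoblast markers was 5.83 to 271 CPM in LT-HSC mutants and 225 to 1094 CPM in the controls, and 18.6 to 53.4 CPM in MPP mutants, against 19 to 228 CPM in the controls. The summed level of 6 endothelial markers was 254 to 367 CPM in LT-HSC mutants and 326 to 355 CPM in the controls, and 96.3 to 140.3 CPM in MPP mutants, against 147 to 149 CPM in the controls. Tie1 and Pecam1 were the largest parts of this sum, at means of 216 and 97.6 CPM in LT-HSC controls, and its members did not move alike. In LT-HSC, Stab2 averaged 1.57 CPM in mutants and 11.2 CPM in controls, and Kdr 11.2 and 8.90 CPM. In MPP, Cdh5 averaged 0.664 CPM in mutants and 5.63 CPM in controls, and Lyve1 9.20 and 0.398 CPM. The summed level of 6 LT-HSC markers was 1007 to 1424 CPM in LT-HSC mutants, against 1447 to 1643 CPM in the controls, and 319 to 396 CPM in MPP mutants, against 516 to 635 CPM in MPP controls. That of 3 MPP markers was 82.9 to 105 CPM in LT-HSC mutants, against 153 to 179 CPM in the controls, and 413 to 512 CPM in MPP mutants, against 759 to 804 CPM in MPP controls. That of 6 markers of LSK cells was 1809 to 2100.0 CPM in LT-HSC mutants and 2032 to 2176 CPM in the controls, and 1945 to 2207 CPM in MPP mutants, against 2355 to 2517 CPM in MPP controls. These 6 did not move alike in MPP. Kit averaged 890 CPM in MPP mutants and 904 CPM in MPP controls, and Gata2 85.4 and 67.8 CPM. Cd34 averaged 773 and 1048 CPM, Ptprc 193 and 287 CPM, Runx1 82.2 and 105.9 CPM, and Ly6a 15.0 and 30.9 CPM. In MPP the macrophage, erythroid, endothelial, LT-HSC, MPP and LSK sums did not overlap between genotypes and the hepatoblast sums did. In LT-HSC the LT-HSC and MPP sums did not overlap, and the other 5 did. The MPP sum fell there mainly through Flt3, at a mean of 65.3 CPM in LT-HSC mutants and 140 CPM in their controls. Cd52 averaged 12.1 and 12.6 CPM, and Cd48 18.7 and 14.5 CPM. The 3 LT-HSC mutant libraries were the least alike of any group, with a chi-square per gene of 24.8 to 47.2 between them, against 5.01 to 19.2 for pairs within the other groups.

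Compared per transcript length, the 7 genes covered a wide range of levels with a largely constant order. The median over the 12 libraries was 148 TPM (abundance scaled for transcript length and depth) for Trim28, 80.3 TPM for Atf7ip, 48.8 TPM for Pphln1, 31.9 TPM for Setdb1, 21.0 TPM for Morc2a, 19.6 TPM for Mphosph8 and 8.98 TPM for Fam208a. Fam208a, the scaffold of HUSH, was the lowest in all 4 groups, and in each group its libraries did not overlap those of the next gene. Trim28 had the highest mean in 3 groups, and in LT-HSC controls its libraries overlapped those of Atf7ip. In LT-HSC mutants Atf7ip averaged 106 TPM and Trim28 102 TPM, and their libraries overlapped. Morc2a stood above Mphosph8 without overlap in LT-HSC mutants (27.2 TPM and 20.4 TPM) and in MPP mutants (29.7 TPM and 20.2 TPM), while in the controls of both cell types the libraries of these genes overlapped. Pphln1 and Mphosph8 varied least, with a coefficient of variation of 11.4% and 10.4% of CPM over the 12 libraries, and Fam208a and Trim28 most, with 37.9% and 37.7%.

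**Figure D1:**
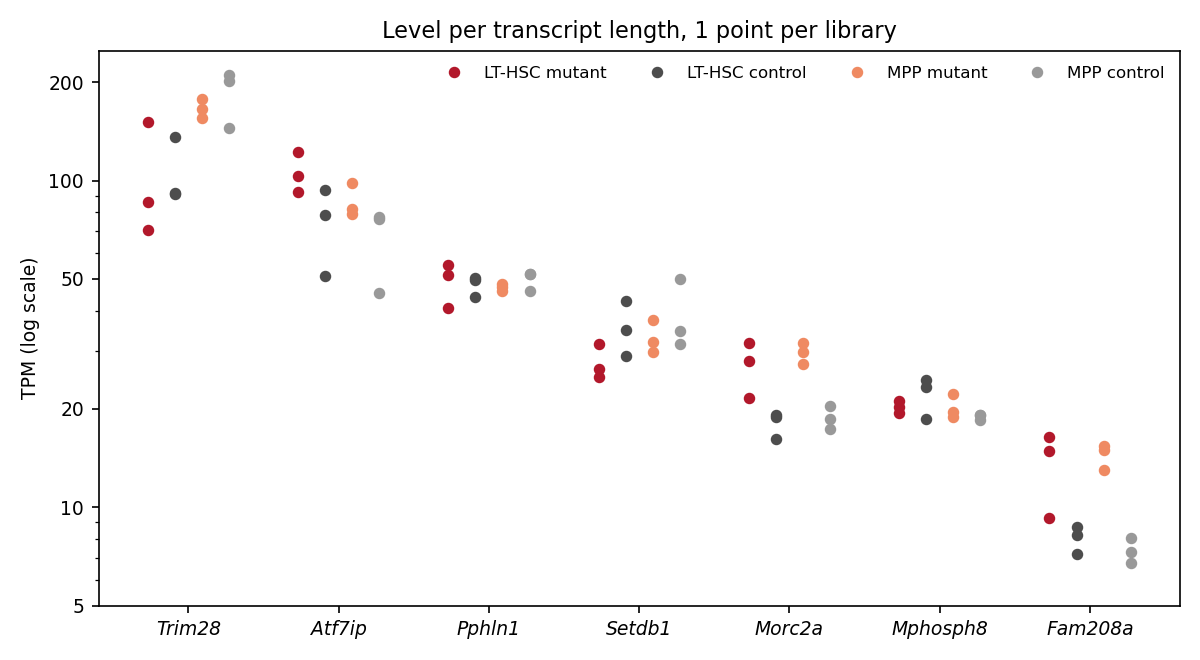
Level per transcript length of the 7 genes in TPM on a log axis, with 1 point per library and the LT-HSC mutants, LT-HSC controls, MPP mutants and MPP controls side by side for each gene. Genes are ordered by their median, which runs between 148 TPM for Trim28 and 8.98 TPM for Fam208a.

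Setdb1, on chromosome 3 from 95323525 to 95357202 (GRCm38.p6, as all coordinates here), was detected in every library, and no difference between genotypes was called. It had 66.46, 66.45 and 80.8 CPM in LT-HSC mutants 1 to 3, against 83.9, 73.5 and 108 CPM in LT-HSC controls. The groups overlapped, since mutant 3 stood above control 2. Within each of the 3 replicate numbers the mutant was the lower library, but the numbers are not shown to mark pairs. The log2 fold change was -0.27 (SE 0.165, 95% interval -0.66 to 0.11, adjusted p = 0.651 by edgeR's quasi-likelihood test), and with the replicate number as a block it was -0.26 (SE 0.117, edgeR adjusted p = 0.428). On leaving out each LT-HSC library in turn it ran from -0.39 to -0.11 and was never called. In MPP the gene had 87.0, 117 and 99.1 CPM in mutants, against 140.2, 95.3 and 87.9 CPM in controls, again with overlap. There mutants 2 and 3 stood above the controls of the same number. The log2 fold change in MPP was -0.12 (SE 0.167, interval -0.49 to 0.25, edgeR adjusted p = 0.598), and it was 0.12 (adjusted p = 0.452) without MPP control 1, the library with the highest value. Setdb1 has 3 transcripts in the tables, and the weighted transcript length stayed between 4621.36 and 4625.84 bases in every library. No difference in that length was called between mutants and controls (limma adjusted p = 1). Reads from transcripts that lack an exon still count in these totals, so the level does not check the genotype. In bulk libraries such as these, fewer cells of a type and less RNA per cell cannot be told apart.

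ATF7IP is the direct partner of SETDB1, and Atf7ip (chromosome 6, 136518789 to 136610850) rose in MPP mutants, where Setdb1 was not called. It had 299, 269 and 230.5 CPM in LT-HSC mutants, against 219.8, 194 and 126 CPM in controls. In MPP it had 281, 250.2 and 238 CPM in mutants, against 125, 208 and 207 CPM in controls. Every mutant library stood above every control library of its cell type, and control 1 in MPP and control 3 in LT-HSC were far below the other controls. In MPP the gene rose 1.40-fold (log2 fold change 0.49, SE 0.166, interval 0.13 to 0.85, edgeR adjusted p = 0.04). The call was lost on leaving out each MPP mutant in turn, with upper-quartile scaling (adjusted p = 0.0685) and with the replicate number as a block (adjusted p = 0.061), and the log2 fold change was 0.28, and called, without MPP control 1 (adjusted p = 0.034). In LT-HSC the log2 fold change was 0.60 (SE 0.207, interval 0.12 to 1.08, edgeR adjusted p = 0.411).

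Trim28 (chromosome 7, 13024152 to 13031032), the adaptor that KRAB zinc finger proteins bind, differed between the cell types in controls, and no difference between genotypes was called. It had 149, 129 and 267 CPM in LT-HSC mutants and 152, 159 and 236.5 CPM in LT-HSC controls. In MPP it had 357, 336.5 and 352 CPM in mutants and 281, 383 and 403 CPM in controls. Within each cell type the genotypes overlapped, with a log2 fold change of 0.03 in LT-HSC (SE 0.287, interval -0.64 to 0.70, edgeR adjusted p = 0.985) and -0.05 in MPP (SE 0.121, interval -0.32 to 0.21, adjusted p = 0.759). Without MPP control 1 the MPP value was -0.20 and passed the threshold (edgeR adjusted p = 0.0445).

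For the chromodomain reader and for periphilin, the other subunits of HUSH, no difference between genotypes was called. Mphosph8 (chromosome 14, 56668235 to 56697430) had 33.0, 33.6 and 31.1 CPM in LT-HSC mutants and 36.6, 36.6 and 29.2 CPM in LT-HSC controls. In MPP it had 35.7, 43.1 and 36.2 CPM in mutants and 33.5, 31.6 and 33.2 CPM in controls. The MPP groups did not overlap, and the log2 fold change of 0.20 (SE 0.115, interval -0.05 to 0.45) missed the threshold (edgeR adjusted p = 0.196). Pphln1 (chromosome 15, 93398345 to 93491913) had 107, 121 and 86.6 CPM in LT-HSC mutants and 100.5, 103 and 92.1 CPM in controls, and 112, 126 and 121 CPM in MPP mutants and 120.3, 119 and 106 CPM in MPP controls. Its groups overlapped in both cell types, with a log2 fold change of 0.13 in LT-HSC (interval -0.21 to 0.47, edgeR adjusted p = 0.833) and 0.03 in MPP (interval -0.17 to 0.23, adjusted p = 0.807).

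Fam208a (chromosome 14, 27423674 to 27483555), the scaffold of HUSH, had the largest log2 fold change of the 7 between genotypes in both cell types. In MPP it had 73.4, 76.4 and 66.4 CPM in mutants, against 33.6, 36.2 and 30.8 CPM in controls. In LT-HSC it had 67.7, 40.6 and 62.8 CPM in mutants, against 34.5, 30.1 and 34.1 CPM in controls. No mutant library of either cell type reached down to a control, and LT-HSC mutant 2 stood nearest to them. The gene rose 2.11-fold in MPP, averaging 72.1 ± 5.11 CPM in mutants and 33.6 ± 2.70 CPM in controls (SD, n = 3 each), with a log2 fold change of 1.08 (SE 0.109, interval 0.84 to 1.31, edgeR adjusted p = 3.5e-05). In LT-HSC it averaged 57.0 ± 14.5 CPM in mutants and 32.9 ± 2.39 CPM in controls (SD, n = 3 each), with a log2 fold change of 0.83 (SE 0.193, interval 0.38 to 1.28) that missed the threshold (edgeR adjusted p = 0.192). DESeq2 called it in LT-HSC (log2 fold change 0.82, adjusted p = 0.0124), and edgeR did so without LT-HSC mutant 2 (0.99, adjusted p = 0.0328).

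Morc2a (chromosome 11, 3649189 to 3690477), the ATPase that acts with HUSH, had the second largest log2 fold change of the 7 between genotypes in both cell types. It had 99.1, 92.6 and 98.4 CPM in MPP mutants, against 51.8, 60.1 and 55.4 CPM in controls. In LT-HSC it had 75.3, 59.7 and 87.4 CPM in mutants, against 48.9, 42.6 and 50.6 CPM in controls. The genotypes did not overlap in either cell type. In MPP it rose 1.70-fold, to 96.7 ± 3.55 CPM in mutants against 55.8 ± 4.17 CPM in controls (SD, n = 3 each), with a log2 fold change of 0.77 (SE 0.0934, interval 0.56 to 0.97, edgeR adjusted p = 0.000124). In LT-HSC the log2 fold change was 0.68 (SE 0.158, interval 0.32 to 1.05), which edgeR did not call (adjusted p = 0.187) and DESeq2 did (0.68, adjusted p = 0.0151).

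**Figure D2:**
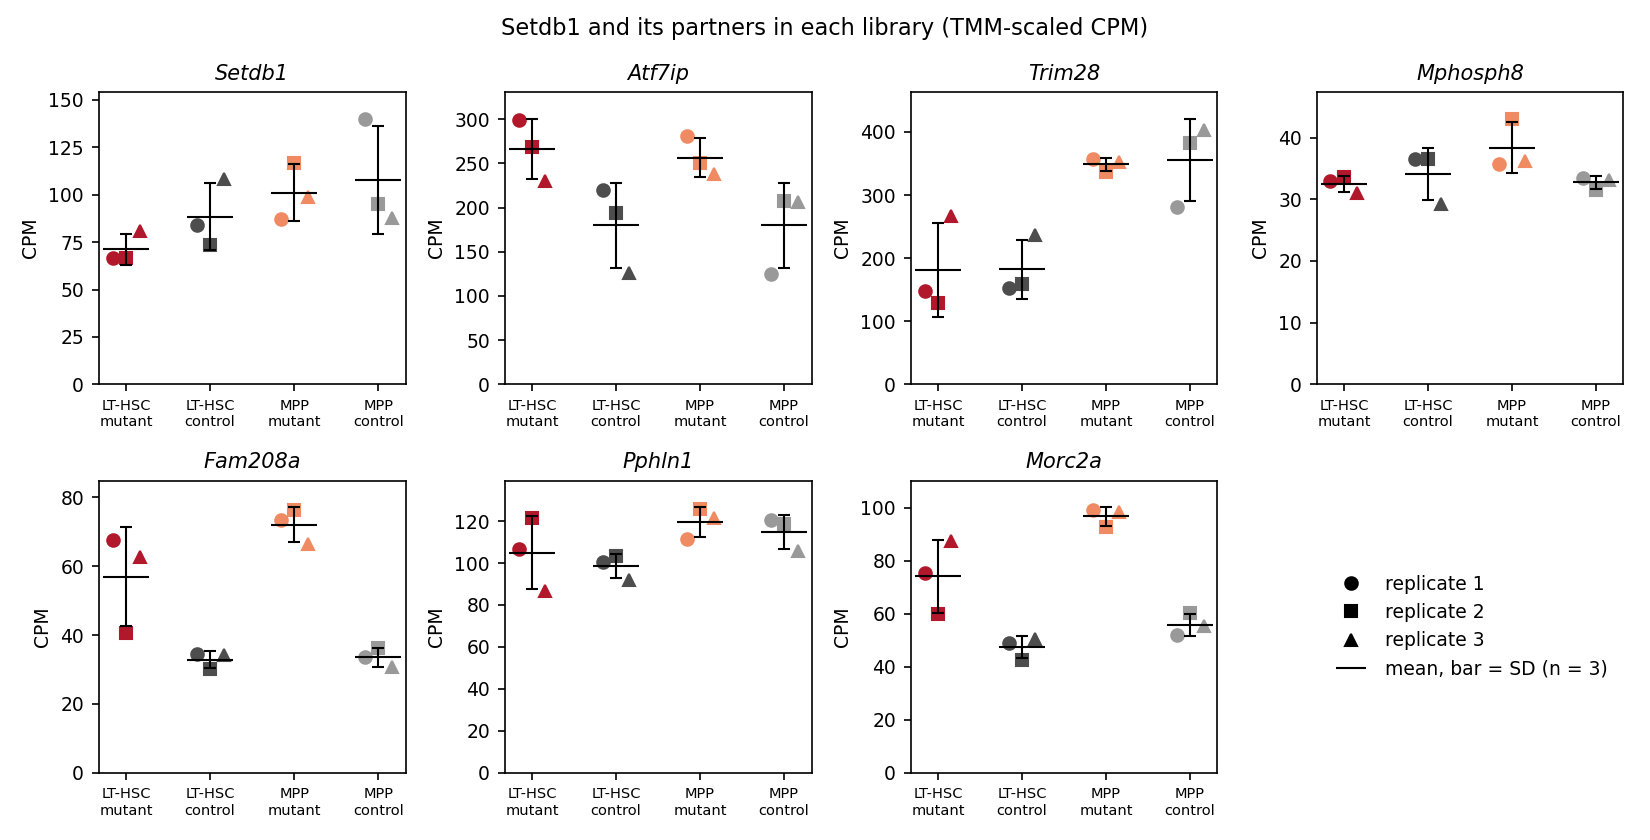
TMM-scaled CPM of the 7 genes in each of the 12 libraries, with the LT-HSC mutants left of the LT-HSC controls and the MPP mutants left of the MPP controls, 1 symbol per replicate number, and the mean with its SD (n = 3). Mutant libraries stand above all controls of their cell type for Atf7ip, Fam208a and Morc2a, and genotypes overlap for Setdb1, Trim28 and Pphln1.

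Counted over the 7 genes, 3 rose and 0 fell in MPP mutants against MPP controls (Fam208a, Morc2a and Atf7ip). Over all 12392 genes tested there, 35% were called, 16.5% higher and 18.5% lower, so a count of 3 in 7 is no result about the genes as a group. Without MPP mutant 2 the calls over all genes were 1276 higher and 1498 lower, against 2039 and 2298 with every library. In LT-HSC 0 of 7 passed, where 0.42% of 12847 genes were called by edgeR and 1221 genes had an unadjusted p under 0.05. DESeq2 called 2 of the 7 there, and over all genes it called 132 higher and 128 lower. The edgeR calls over all genes in LT-HSC, 33 higher and 21 lower, were 13 and 0 without LT-HSC control 3. They were 33 and 69 without LT-HSC mutant 2. The median log2 fold change of the 7 genes was 0.20 in MPP and 0.13 in LT-HSC, beside -0.01 and 0.03 over all genes tested. Mutant libraries stood above all controls without overlap for 4 of the 7 genes in MPP and for 3 in LT-HSC, against 26.6% and 6.89% of all genes tested. No label states that a group's 3 libraries came from separate fetuses, and each p-value covers no more than the spread among these libraries.

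**Figure D3:**
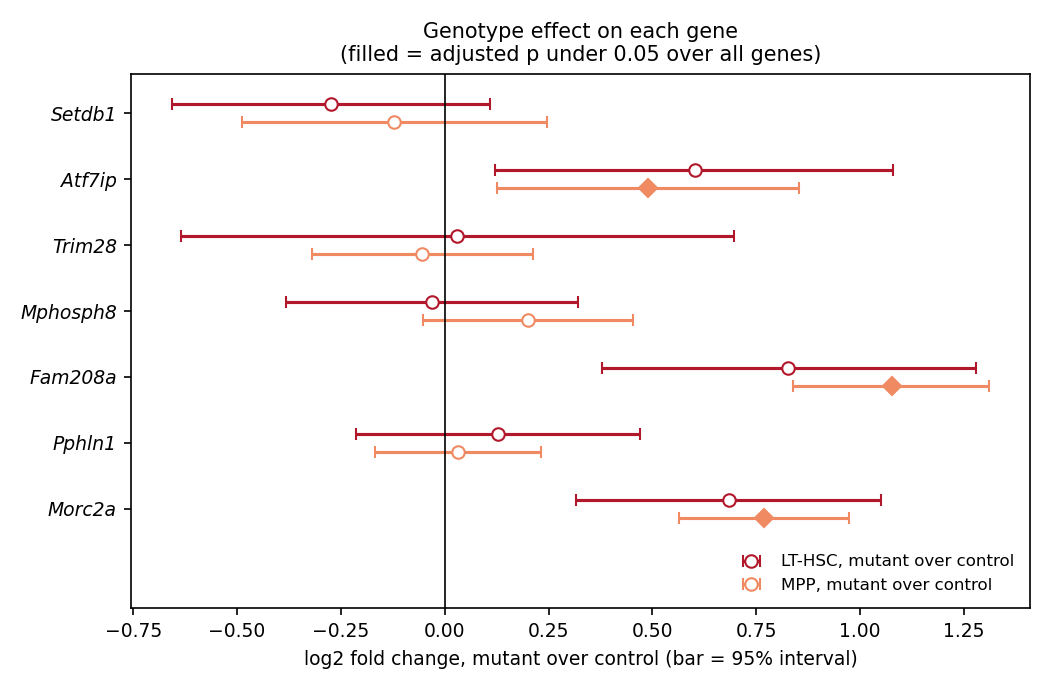
Log2 fold change of the 7 genes, mutant over control, in LT-HSC and MPP, with the 95% interval as a bar. Filled symbols mark an adjusted p under 0.05 over all genes tested, which holds in MPP for Atf7ip (0.49), Fam208a (1.08) and Morc2a (0.77).

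Some of these values depend on few libraries. The log2 fold change of Fam208a in MPP stayed between 1.02 and 1.14 and that of Morc2a between 0.72 and 0.84 on leaving out each library in turn, and both were called in all 6 cases. In LT-HSC the same ranges were 0.69 to 0.99 and 0.55 to 0.78, and Fam208a was called in 1 of 6 cases and Morc2a in 0. With only the controls that carry Cre, which leaves 1 MPP control and needs a joint fit of the 4 groups in which that library is taken to vary like the other groups, the MPP values were 1.16 for Fam208a (edgeR adjusted p = 0.0982), 0.74 for Morc2a (adjusted p = 0.142) and 0.25 for Atf7ip (adjusted p = 0.612), and none was called. MPP control 3, the control with Cre, had the lowest Fam208a level of the 3 MPP controls. The macrophage, erythroid, endothelial, LT-HSC, MPP and LSK marker sums given above also moved with genotype in MPP. In LT-HSC the LT-HSC and MPP sums did so, the latter mainly through Flt3. The part of the marker sums in these results was not tested in either cell type.

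**Figure D4:**
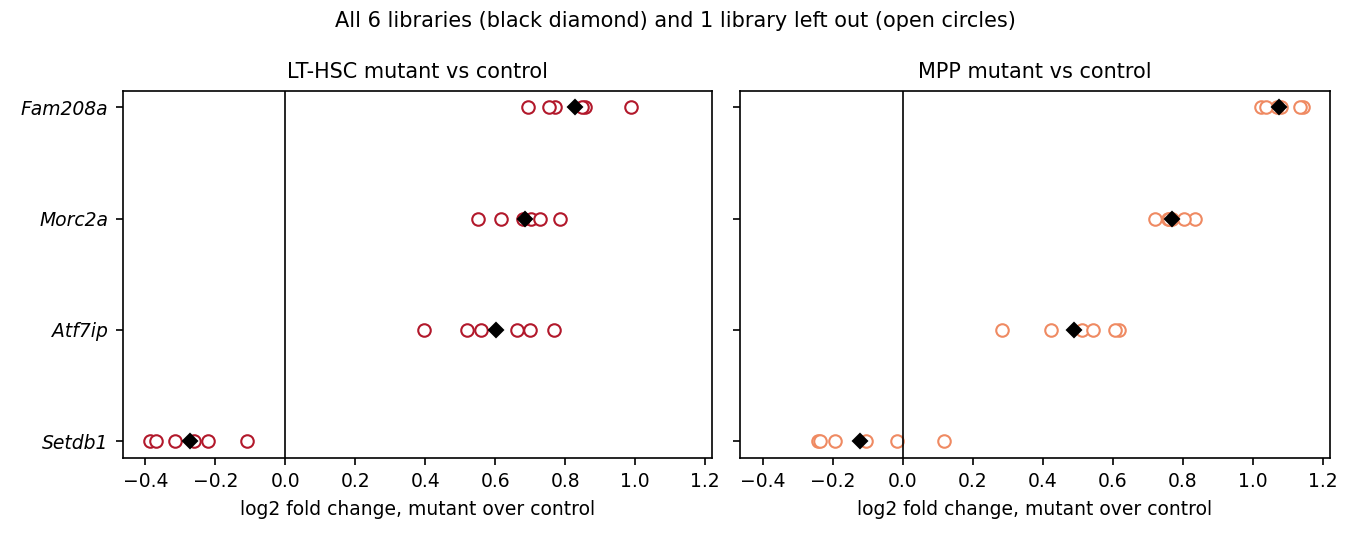
Log2 fold change, mutant over control, of Fam208a, Morc2a, Atf7ip and Setdb1 in LT-HSC and in MPP with all 6 libraries (black diamonds) and with each library left out in turn (open circles). Fam208a in MPP stays between 1.02 and 1.14, and Setdb1 in MPP crosses 0.

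The ratio of the HUSH scaffold to its other subunits did not overlap between the genotypes in MPP. Fam208a stood at 0.783, 0.674 and 0.692 of the Mphosph8 level (ratio of TPM) in MPP mutants, against 0.38, 0.436 and 0.352 in MPP controls. In LT-HSC the ratio was 0.775, 0.455 and 0.763 in mutants, against 0.355, 0.309 and 0.443 in controls. Relative to Pphln1, Fam208a stood at 0.336, 0.311 and 0.275 in MPP mutants, against 0.141, 0.155 and 0.147 in MPP controls. In LT-HSC mutants that ratio was 0.319, 0.168 and 0.366, against 0.173, 0.145 and 0.187 in LT-HSC controls. The genotypes overlapped only in the last of these 4 comparisons, through LT-HSC mutant 2.

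Between the cell types, Trim28 had the largest log2 fold change of the 7 within each genotype. In control LT-HSC it was at 0.515 of the level in control MPP (log2 fold change -0.96, SE 0.178, interval -1.35 to -0.56, edgeR adjusted p = 0.00238), and all 3 LT-HSC controls stood below all MPP controls. It was the 1 gene of the 7 that was called, and 38.5% of the 12834 genes tested were called in that comparison, with 18% lower. With only the Cre-carrying controls, of which 1 is an MPP library, the value was -1.10 and was not called (edgeR adjusted p = 0.177). Pphln1 and Morc2a also stood lower without overlap in LT-HSC controls, as did 24.6% of all genes, with log2 fold changes of -0.21 (edgeR adjusted p = 0.096) and -0.23 (adjusted p = 0.137). The control levels of Fam208a (-0.02, interval -0.30 to 0.26), Atf7ip (0.01, interval -0.49 to 0.51) and Mphosph8 (0.07, interval -0.23 to 0.37) had intervals on both sides of 0, and Setdb1 had a value of -0.28 (interval -0.70 to 0.14, edgeR adjusted p = 0.263).

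In mutants the same comparison called 0 of the 7 genes with edgeR, where 22.8% of 12452 genes were called and 4876 had an unadjusted p under 0.05. Those calls over all genes, 1851 higher and 994 lower in mutant LT-HSC, were 2555 and 2532 without LT-HSC mutant 3, and 427 and 155 without MPP mutant 2. Trim28 had a log2 fold change of -0.89 (SE 0.266, interval -1.51 to -0.26, edgeR adjusted p = 0.0516) and Setdb1 of -0.45 (SE 0.145, interval -0.79 to -0.11, adjusted p = 0.0637). DESeq2 called both (adjusted p = 0.00342 for Trim28 and 0.0267 for Setdb1), and over all genes it called 2069 higher and 1632 lower. Without LT-HSC mutant 3, the library with the highest Trim28 level of its group, edgeR called Trim28 (-1.27), Setdb1 (-0.55) and Morc2a (-0.46). Setdb1, Trim28, Mphosph8 and Morc2a stood lower in every mutant LT-HSC library than in every mutant MPP library, as did 25.6% of all genes tested.

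The genotype effect was not shown to differ between the cell types for any of the 7 genes. In the interaction over 12 libraries edgeR called 0 of 7, against 0.377% of 13249 genes, with 1637 genes at an unadjusted p under 0.05. Over all genes 30 were called higher and 20 lower, and without LT-HSC mutant 3 the numbers were 348 and 537, with 0 of the 7 among them. The largest differences, LT-HSC effect minus MPP effect, were -0.31 for Fam208a (interval -0.81 to 0.20, edgeR adjusted p = 0.669) and -0.30 for Mphosph8 (interval -0.67 to 0.08, adjusted p = 0.537), and DESeq2 called 0 of 7 as well. Taken over both cell types in 1 fit with cell type as a term, 3 genes rose and 0 fell, beside 19.6% of all genes called and 9.31% called higher. They were Fam208a at 1.93-fold (log2 fold change 0.95, SE 0.121, edgeR adjusted p = 0.000403), Morc2a at 1.65-fold (0.72, SE 0.0923, adjusted p = 0.000403) and Atf7ip at 1.45-fold (0.54, SE 0.149, adjusted p = 0.0238). Setdb1 had a value of -0.20 in this fit (interval -0.50 to 0.09, edgeR adjusted p = 0.301), Trim28 of -0.02, Mphosph8 of 0.08 and Pphln1 of 0.07. With only the Cre-carrying controls Fam208a (0.98, edgeR adjusted p = 0.0167) and Morc2a (0.73, adjusted p = 0.019) passed and Atf7ip did not (0.57, adjusted p = 0.0859).

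The weighted transcript length, which follows the isoforms that reads are assigned to, changed with genotype for 0 of the 4 members with several transcripts, and 0.168% of the 3577 genes tested were called by limma. Pphln1 had the smallest p of them (log2 length difference 0.0051, limma adjusted p = 0.375). Atf7ip, Trim28 and Mphosph8 have 1 transcript in the tables. Overlapping and neighbouring genes bear on the counts, because the kit does not keep the strand and reads of overlapping genes cannot be told apart. Ccdc66 overlaps the end of Fam208a by 2466 bases and had 17.8 to 21.0 CPM in MPP mutants and 17.6 to 23.2 CPM in MPP controls (log2 fold change -0.08, edgeR adjusted p = 0.694). Tug1, which encodes a long noncoding RNA and lies 374 bases from Morc2a, had a log2 fold change of 0.04 in MPP (edgeR adjusted p = 0.802) and 0.24 in LT-HSC (adjusted p = 0.677). Plbd1, 1220 bases beyond Atf7ip, fell to 0.941 ± 0.315 CPM in MPP mutants against 17.5 ± 1.14 CPM in MPP controls (SD, n = 3 each, log2 fold change -4.21, edgeR adjusted p = 4.75e-07). It fell in LT-HSC too, to a mean of 0.863 CPM in mutants against 11.1 CPM in controls (log2 fold change -3.64, edgeR adjusted p = 0.0288). That LT-HSC call held in 2 of the 6 fits that left out a library. Ccdc66, Tug1 and Plbd1 were picked after their values were seen. Setdb1 also shares 75 bases with Cers2, and Mphosph8 shares 1156 bases with the noncoding RNA gene Gm16973. Over both cell types Cers2 had a log2 fold change of 0.18 (edgeR adjusted p = 0.0344) and Gm16973 of -0.02 (adjusted p = 0.927). Fam208a shares 5057 bases with Gm52095, Atf7ip 1455 with LOC108169175, Pphln1 893 with Gm30181 and Trim28 438 with Gm31649. These last overlapping genes have no levels in the deposited data, so their part in the counts was not tested. Expected counts of Setdb1, Mphosph8 and Fam208a were fractional in all 12 libraries, so some of their reads were shared with other genes or copies, and those of the other 4 genes were whole.

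Likeness of patterns was ranked among 9113 genes with a mean of at least 10 CPM. Genes with placeholder symbols, 2810474O19Rik among them, and a few others excluded by name were left out. The gene nearest to Fam208a in its pattern over the 12 libraries was Morc2a. The root mean square difference of their centred log2 CPM was 0.175, against an SD of 0.515 for Fam208a itself. The gene nearest to Morc2a was Ethe1, a sulfur dioxygenase of mitochondria, at 0.146 against an own SD of 0.415. Setdb1 lay nearest to Gpbp1l1 (0.138), Tial1 (0.169), Cenpl (0.176), Wdhd1 (0.177) and Lrp6 (0.18), with an own SD of 0.31. The nearest gene was Gmds for Atf7ip (0.228, own SD 0.388), Stk24 for Trim28 (0.104, own SD 0.577), Smek2 for Mphosph8 (0.0745, own SD 0.139) and Ckap2l for Pphln1 (0.0624, own SD 0.163). The distance to the nearest gene was the largest for Atf7ip and the smallest for Pphln1. These are distances in 12 libraries that share cell type and genotype, given without a test.

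Of 9 further genes of the SETDB1 and HUSH machinery, 8 could be tested, and the paralogue Morc2b had no reads in any library. Of the 8, 1 rose in LT-HSC mutants and 0 fell, and 2 rose and 0 fell in MPP mutants, where 0.257% and 16.5% of all genes tested were called higher. The median log2 fold change of the 8 was 0.18 in LT-HSC and 0.29 in MPP, beside 0.03 and -0.01 over all genes tested. The gene that rose in both was 2810474O19Rik (Resf1, chromosome 6, 149309409 to 149335663), whose protein binds SETDB1 and takes part in the silencing of endogenous retroviruses in mouse embryonic stem cells. It had 445, 316 and 460.0 CPM in LT-HSC mutants, against 97.8, 77.2 and 81.3 CPM in LT-HSC controls. In MPP it had 418, 494 and 463 CPM in mutants, against 72.4, 81.0 and 73.2 CPM in controls. Every mutant library stood far above every control. The log2 fold change was 2.29 in LT-HSC (4.88-fold, SE 0.164, interval 1.91 to 2.67, edgeR adjusted p = 0.00153) and 2.58 in MPP (5.96-fold, SE 0.0976, interval 2.36 to 2.79, adjusted p = 3.3e-08). It was called in both cell types under each alternative run, leaving out each library and using only Cre-carrying controls included. The second gene in MPP was Fam208b, the paralogue of Fam208a, with 58.1 to 62.7 CPM in mutants and 43.4 to 53.2 CPM in controls (log2 fold change 0.31, edgeR adjusted p = 0.0437). That call was lost in 5 of the 6 fits that left out a library, with upper-quartile scaling (adjusted p = 0.093) and with the replicate block (adjusted p = 0.067). In LT-HSC Fam208b had 48.5 to 54.4 CPM in mutants and 46.1 to 71.8 CPM in controls, a log2 fold change of -0.23 (edgeR adjusted p = 0.749), and the difference between its genotype effects in the cell types was not called (-0.60, adjusted p = 0.268). Over both cell types Morc3, a relative of Morc2a that also silences retroelements, rose as well (log2 fold change 0.26, edgeR adjusted p = 0.0128).

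Among 15 genes of the TRIM28 family and its co-repressors, 0 were called in LT-HSC mutants, where 0.42% of all genes were, and 2 rose and 1 fell in MPP mutants, where 35% of all genes were called. Trim24, which encodes the TRIM28 relative TIF1-alpha, had 71.8, 86.7 and 90.6 CPM in MPP mutants, against 18.2, 23.8 and 27.0 CPM in MPP controls. It rose 3.55-fold there (log2 fold change 1.83, SE 0.148, interval 1.5 to 2.15, edgeR adjusted p = 9.31e-06). In LT-HSC it had 32.7, 19.2 and 57.0 CPM in mutants and 13.9, 17.0 and 22.3 CPM in controls, with overlap through LT-HSC mutant 2 (log2 fold change 1.07, interval 0.20 to 1.94, edgeR adjusted p = 0.42). Trim33, a further relative, rose in MPP (0.35, edgeR adjusted p = 0.0237) and Trim66 fell (-1.28, adjusted p = 0.01). Levels of Trim66 were low, at 0.678 to 1.45 CPM in MPP mutants and 2.31 to 2.66 CPM in MPP controls. Between control LT-HSC and control MPP 3 of the 15 were called, beside 38.5% of all genes. Chd3, a remodeller of the NuRD complex, was higher (1.36, edgeR adjusted p = 3.42e-05), and the HP1 gene Cbx3 (-0.95, adjusted p = 7.87e-05) and Hdac2 (-0.49, adjusted p = 0.0181) were lower in LT-HSC.

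**Figure D5:**
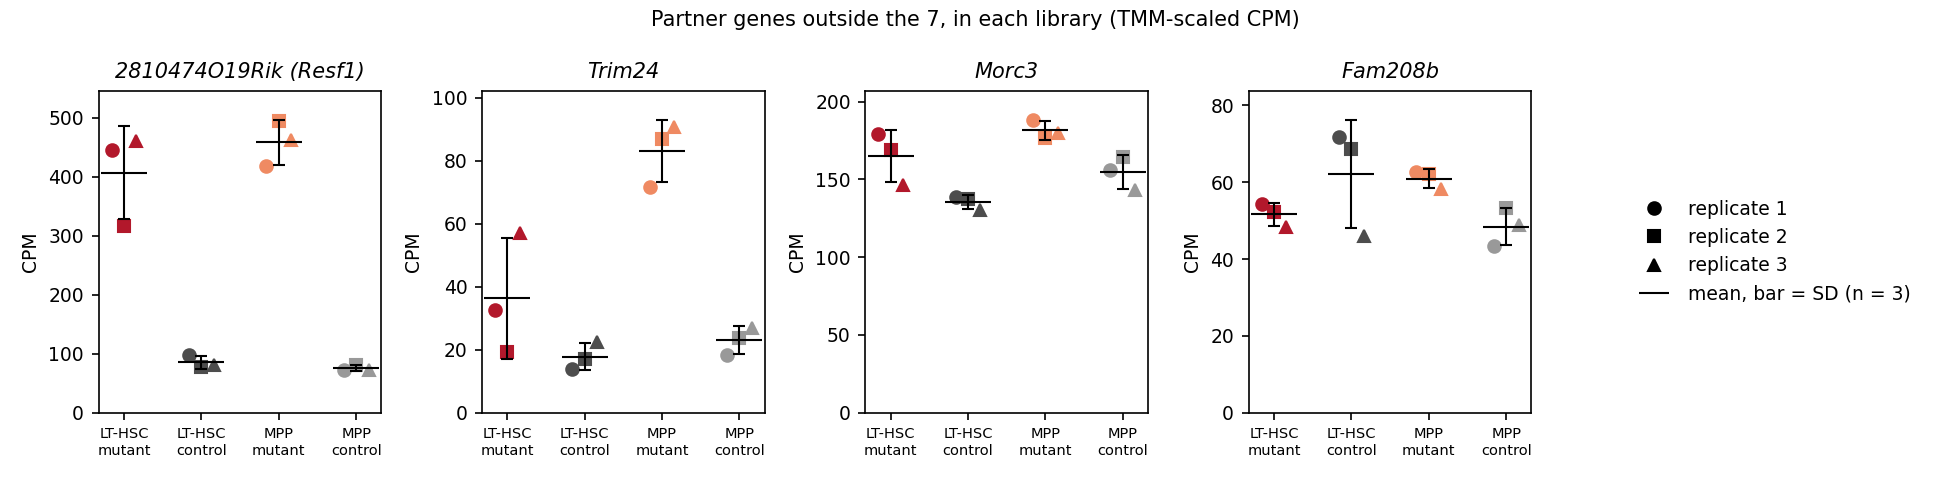
TMM-scaled CPM of 2810474O19Rik (Resf1), Trim24, Morc3 and Fam208b in each of the 12 libraries, mutants left of controls within each cell type, with the mean and its SD (n = 3). 2810474O19Rik lies between 316 and 494 CPM in the 6 mutants and between 72.4 and 97.8 CPM in the 6 controls.

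Of 10 KRAB zinc finger genes whose proteins bring TRIM28 to DNA, 9 were tested, and Zfp819 had at most 4 counts in a library. None of the 9 was called in LT-HSC mutants, and 2 rose and 1 fell in MPP mutants, beside 0.42% and 35% of all genes called. Zfp568, which silences an imprinted transcript of Igf2 in mouse, rose to 42.8 to 47.4 CPM in MPP mutants, against 29.9 to 33.1 CPM in controls (log2 fold change 0.49, edgeR adjusted p = 0.00434). Zfp809, which recognises the primer binding site of murine leukaemia viruses, rose too (0.41, edgeR adjusted p = 0.0248), and Rsl1, a regulator of sex-limited liver genes in mouse, fell (-0.63, adjusted p = 0.0245). Of the 4 other methyltransferase genes for lysine 9 of histone H3, 0 were called in either cell type between genotypes, beside the same shares of all genes, with a median log2 fold change of 0.08 in LT-HSC and 0.0025 in MPP. In control LT-HSC against control MPP, Suv39h1 (-0.23, edgeR adjusted p = 0.0487) and Suv39h2 (-0.71, adjusted p = 0.0299) were lower, where 18% of all genes were. On leaving out each library in turn, Trim24 and Zfp568 were called in all 6 MPP fits, Trim66 in 5, and Trim33, Zfp809 and Rsl1 in 2 each. Between the control cell types Chd3 and Cbx3 were called in all 6 such fits, Hdac2 and Suv39h2 in 2 each and Suv39h1 in 0. With only the Cre-carrying controls, of the genes that these lists gave in MPP only 2810474O19Rik kept its call, and Trim24 had a log2 fold change of 1.56 (edgeR adjusted p = 0.188).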

How the data were processed

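RNA was sequenced from 12 libraries of sorted fetal liver cells at E13.5, from 10 ng of RNA each per the labels, by an ultra-low-input protocol without strand information. Per the submitters' processing notes, the reads were aligned with STAR and quantified with RSEM on mm10, and their versions were not given in the sources used here. Per the file headers, each sample's deposited table gives expected counts, TPM and a transcript length weighted by isoform abundance. Expected counts are estimates, and 7.13% to 7.76% of the values in a library were fractional.

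Titles and genotypes gave the groups and replicate numbers. Rounded expected counts were tested with edgeR 4.0.16 in R 4.3.3 (quasi-likelihood test, TMM scaling, filterByExpr with a minimum count of 10 and a minimum total of 15, Benjamini-Hochberg adjustment over all genes tested, threshold 0.05). Genotype was tested within each cell type, cell type within each genotype, and the interaction and shared effect over all 12 libraries. Weighted length was tested with limma 3.58.1 on the log2 scale. CPM are TMM-scaled, and likeness of patterns used a prior count of 2. The genotype test within each cell type, the shared-effect test and the length test were checked on simulated data. The cell type tests and the interaction were not. Alternatives were DESeq2 1.42.0, upper-quartile scaling, no filter, the replicate block, each library left out, and Cre-carrying controls only.

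The 7 members are named in every comparison, with up to 3 called genes of each further list by smallest p. The members, lists and tests were chosen with earlier results of these data known. Deviations of same-numbered LT-HSC mutants and controls from their group means correlated weakly across genes (r = 0.108, 0.148 and 0.175). Differently numbered libraries were not compared and the meaning of a number is not labelled, so these values do not establish pairs. The main fits treated all libraries as unpaired, and the replicate block was an alternative run. In MPP the values were -0.0247, -0.212 and -0.177, and neither those libraries nor the cell types (0.0597, -0.263 and 0.0683 in controls, 0.107, -0.0268 and 0.153 in mutants) were taken as paired. Whether LT-HSC and MPP libraries share a fetus is not given, and fits over 12 libraries treat them as independent. Promoter sequences and coordinates are from RefSeq, GRCm38.p6.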

Additional observations from a re-analysis of the deposited data

How the results depend on the processing

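The count of the 7 genes called moved with the method and the libraries used. In LT-HSC, mutants against controls, it was 0, and DESeq2 gave 2, while leaving out each library gave 0 to 1. In MPP it was 3, with 2 to 4 on leaving out each library and 0 with only Cre-carrying controls. Between control LT-HSC and control MPP it was 1, and 0 with only Cre-carrying controls. Between mutant LT-HSC and mutant MPP it was 0, and DESeq2 gave 2, upper-quartile scaling 1, no filter 1 and the replicate block 1 (Trim28 -0.97, adjusted p = 0.0357), while leaving out each library gave 0 to 3. For the interaction and the weighted length it stayed at 0 in every alternative run, and for the shared effect it was 3, with 2 to 3 on leaving out each library. The replicate block lost Atf7ip (0.52, adjusted p = 0.061) and Fam208b (0.31, adjusted p = 0.067) in MPP. Over all genes, calls higher and lower in LT-HSC mutants numbered 33 and 21, and 132 and 128 with DESeq2. Between mutant LT-HSC and mutant MPP they numbered 1851 and 994, and 2069 and 1632 with DESeq2. Upper-quartile scaling gave 2034 and 850 such calls there, no filter 1684 and 1014, and the block 1741 and 1291. In the interaction they numbered 30 and 20, with 175 and 164 by DESeq2, 44 and 43 without a filter, 17 and 7 with the block, 30 and 11 with upper-quartile scaling and 0 with only Cre-carrying controls. With those controls alone the calls were 47 and 78 in MPP, against 2039 and 2298 with all controls, 147 and 180 between control cell types, against 2628 and 2314, and 242 and 314 for the shared effect, against 1234 and 1362. Upper-quartile scaling gave 932 and 1603 for the shared effect. Leaving out a library moved the total of calls over all genes by over 1.5 times in 5 comparisons. In LT-HSC the calls were 14 and 0, 14 and 1, and 13 and 0 without controls 1, 2 and 3, 17 and 0 without mutant 1, and 33 and 69 without mutant 2. In MPP they were 1276 and 1498 without mutant 2, and 1309 and 1558 without mutant 3. Between mutant LT-HSC and mutant MPP, at 1851 and 994, they were 946 and 410 without LT-HSC mutant 1, 2555 and 2532 without LT-HSC mutant 3, and 1026 and 366, 427 and 155, and 460 and 143 without MPP mutants 1, 2 and 3. In the interaction they were 348 and 537 without LT-HSC mutant 3, 10 and 7 without LT-HSC mutant 1, 10 and 5, 6 and 5, and 7 and 3 without LT-HSC controls 1, 2 and 3, 5 and 2, 3 and 2, and 8 and 6 without MPP controls 1, 2 and 3, and 0 and 1, and 3 and 1 without MPP mutants 2 and 3. For the shared effect they were 724 and 960 without MPP control 3, 761 and 849 without MPP mutant 2, and 773 and 844 without MPP mutant 3. Fewer samples enter the fits with Cre-carrying controls.

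Signs turned only for log2 values that were not called, and the cause was not tested. With upper-quartile scaling Trim28 was -0.022 in LT-HSC, Pphln1 -0.029 and Tug1 -0.021 in MPP, and Fam208a 0.0071 between control cell types. With the block Trim28 was -0.014 in LT-HSC and -0.040 in the interaction. Atf7ip between control cell types was -0.0029 with DESeq2 and -0.00068 without a filter. With only Cre-carrying controls Trim28 was -0.075 and Mphosph8 0.026 in LT-HSC, Setdb1 0.14 and Ccdc66 0.057 in MPP, and Atf7ip -0.44 and Mphosph8 -0.078 between control cell types. Effective length gave 9.98e-05 for Setdb1.

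On leaving out each library the ranges that crossed 0 were, in LT-HSC, -0.35 to 0.25 for Trim28, -0.14 to 0.026 for Mphosph8 and -0.029 to 0.25 for Pphln1. In MPP they were -0.24 to 0.12 for Setdb1, -0.20 to 0.053 for Trim28, -0.018 to 0.087 for Pphln1, -0.16 to 0.049 for Ccdc66 and -0.026 to 0.14 for Tug1. Between control cell types they were -0.20 to 0.22 for Atf7ip and -0.085 to 0.039 for Fam208a. In the interaction they were -0.15 to 0.26 for Atf7ip, -0.36 to 0.25 for Trim28 and -0.088 to 0.15 for Pphln1. In the shared effect Trim28 ran from -0.19 to 0.082, and the log2 length from -0.00023 to 0.00012 for Setdb1 and from -0.0030 to 0.0011 for Fam208a. Trim28 in MPP, at -0.20 without MPP control 1, was the value among these that passed the threshold. No scaling moved the median of all genes by over 0.1.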

Other observations

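Atf7ip and Setdb1 stood at opposite ends in the same control libraries, a comparison chosen after the values were seen. Atf7ip was at 0.908 of the Setdb1 level (ratio of TPM) in MPP control 1 and at 1.19 in LT-HSC control 3. In the other 10 libraries the ratio lay between 2.19 and 4.6, with 2.91 to 4.6 in LT-HSC mutants, 2.68 and 2.69 in the remaining LT-HSC controls, 2.19 to 3.3 in MPP mutants, and 2.23 and 2.4 in the remaining MPP controls. Of these controls with a low ratio, LT-HSC control 3 carries Cre and MPP control 1 does not. Trim28 stood between 2.62 and 6.64 times the Setdb1 level in TPM, and MPP control 1, at 2.9, was the only MPP library below 4.17.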
